A study of Mus musculus with 384 samples.

Results

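The genes described here encode the proteasome and the machinery that presents its peptides on MHC class I. They are the 49 rows of the deposited matrix whose symbol is Psm followed by a letter from a to g and a number, together with B2m, H2-K1, H2-D1, Tap1, Tap2, Tapbp and Nlrc5. This gave 56 of the 23420 gene symbols measured. One of the matches, Psmc3ip, encodes a meiotic recombination protein and no proteasome subunit, so it is counted apart. Expression was measured by Smart-seq2, which amplifies and sequences the whole transcripts of cells sorted into wells, in T cells taken from B16F10 melanomas, a transplantable skin tumour line. The 4 groups were CD4 cells of Il27ra knockout mice (CD4 KO), CD4 cells of wild-type mice (CD4 WT), CD8 cells of Il27ra knockout mice (CD8 KO) and CD8 cells of wild-type mice (CD8 WT). All carry the strain label C57BL/6, all cells came from tumours, and the Il27ra product is the specific chain of the receptor for the cytokine IL-27. The labels give neither the age of the mice nor the part of Il27ra that was deleted. The label on treatment speaks of CD8+ cells throughout, but 2 of the plates are titled CD4, and the titles were used for grouping. Each group is 1 plate of 94 wells with a single cell, 1 well with a population of cells and 1 well without a cell, and the titles were read as 1 source of cells per genotype, which is an assumption. Genotype, source and plate therefore cannot be told apart.

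The 20S core of the proteasome is a barrel of alpha and beta rings, and proteolysis is carried out by the beta subunits encoded by Psmb5, Psmb6 and Psmb7. In lymphocytes and in cells exposed to interferon gamma these are replaced by the immunoproteasome subunits encoded by Psmb8, Psmb9 and Psmb10. The 19S particle unfolds ubiquitinated proteins and feeds them into the core, and PA28 (Psme1 and Psme2) is an alternative cap that is also induced by interferon gamma. The resulting peptides are pumped into the endoplasmic reticulum by the transporter TAP (Tap1 and Tap2), loaded onto class I heavy chains with the help of tapasin (Tapbp), and shown at the cell surface with beta-2-microglobulin (B2m). Nlrc5 is a transactivator of class I genes and is abundant in T cells.

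Psmb8, Psmb9, Tap1 and Tap2 lie side by side in the class II region of the MHC on chromosome 17. In the GENCODE annotation of GRCm38, the assembly behind mm10, Psmb9 spans chr17:34181987-34187764 on the minus strand and Tap1 chr17:34187553-34197225 on the plus strand. Psmb8 follows at chr17:34197721-34201454 and Tap2 at chr17:34203527-34216321. H2-K1 (chr17:33996017-34000347) and H2-D1 (chr17:35262730-35267499) flank this block, while B2m is on chromosome 2 (chr2:122147686-122153083). The paired PA28 genes Psme1 (chr14:55578123-55581529) and Psme2 (chr14:55587441-55591113) share chromosome 14 with Psmb5 (chr14:54614119-54618022), and Psmb10 (chr8:105935735-105938444) and Nlrc5 (chr8:94434356-94527272) are both on chromosome 8.

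The promoters of a matched immunoproteasome and constitutive pair, of the shared Psmb9 and Tap1 region, and of a PA28 and a class I gene are printed to show the sequences upstream of the transcripts compared below. Each window runs from 250 bases before to 50 bases after the start site and is given 5′ to 3′ on the strand of the gene, from RefSeq (GRCm38.p6). Capitals mark a motif match, or for Psmb9 the bases from the Tap1 start site to the Psmb9 start site. Psmb8 is at chr17:34197945-34198244 on the plus strand, Psmb5 at chr14:54617946-54618245 on the minus strand, Psmb9 at chr17:34187281-34187580 on the minus strand, B2m at chr2:122147437-122147736 on the plus strand and Psme1 at chr14:55578244-55578543 on the plus strand.
Psmb8: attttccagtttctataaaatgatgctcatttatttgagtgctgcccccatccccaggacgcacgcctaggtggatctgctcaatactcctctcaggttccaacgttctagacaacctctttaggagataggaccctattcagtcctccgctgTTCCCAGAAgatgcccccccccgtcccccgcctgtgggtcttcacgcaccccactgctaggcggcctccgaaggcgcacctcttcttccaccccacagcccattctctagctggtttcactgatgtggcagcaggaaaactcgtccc
Psmb5: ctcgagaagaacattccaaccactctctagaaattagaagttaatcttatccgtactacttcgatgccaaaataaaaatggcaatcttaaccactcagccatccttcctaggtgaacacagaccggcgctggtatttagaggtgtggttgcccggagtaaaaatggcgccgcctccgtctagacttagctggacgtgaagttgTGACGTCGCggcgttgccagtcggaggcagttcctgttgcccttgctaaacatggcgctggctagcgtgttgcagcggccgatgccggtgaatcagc
Psmb9: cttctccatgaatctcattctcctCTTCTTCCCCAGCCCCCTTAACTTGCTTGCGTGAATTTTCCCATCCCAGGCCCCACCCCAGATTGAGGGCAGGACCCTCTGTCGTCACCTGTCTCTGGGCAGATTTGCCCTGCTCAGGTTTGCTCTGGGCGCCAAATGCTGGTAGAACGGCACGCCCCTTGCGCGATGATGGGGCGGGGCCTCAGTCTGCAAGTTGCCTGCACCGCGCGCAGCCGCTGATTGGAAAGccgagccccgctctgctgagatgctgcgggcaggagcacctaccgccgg
B2m: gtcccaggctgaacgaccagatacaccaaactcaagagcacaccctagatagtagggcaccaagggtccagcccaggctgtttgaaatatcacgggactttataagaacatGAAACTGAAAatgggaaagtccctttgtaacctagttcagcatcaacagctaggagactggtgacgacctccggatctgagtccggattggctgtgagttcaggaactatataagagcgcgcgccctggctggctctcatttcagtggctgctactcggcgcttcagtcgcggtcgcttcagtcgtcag
Psme1: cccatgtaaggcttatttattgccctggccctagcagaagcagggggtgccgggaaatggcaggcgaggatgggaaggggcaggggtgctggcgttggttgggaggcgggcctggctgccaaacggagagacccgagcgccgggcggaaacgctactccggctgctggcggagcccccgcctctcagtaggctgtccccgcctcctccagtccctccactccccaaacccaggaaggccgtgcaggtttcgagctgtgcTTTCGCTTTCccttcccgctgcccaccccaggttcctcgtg
The following motifs were searched on both strands: GAAA, any 2 bases and GAAA again (the core of the interferon-stimulated response element), TTCNNNGAA (a STAT site) and TGACNNNGC (the core of the antioxidant response element). Promoters were found for 46 of the 56 genes, and Nlrc5, Psma8, Psmb1, Psmb2, Psmb7, Psmc3, Psmd3, Psmd7, Psmg2 and Tap2 had no entry. The interferon motif was present in 6 of 46 promoters (B2m, Psmb3, Psmd4, Psmd9, Psme1 and Psmg4), or 13.04%, against 3.99% of 27025 promoters in the table. In B2m the match lies upstream of the start site, and in Psme1 it lies on the reverse strand just after it. The STAT motif was present in 3 of 46 promoters (6.52%, against 9.55% of all), among them Psmb8, where it starts 97 bases upstream. The antioxidant motif was present in 7 of 46 (15.2%, against 13.99% of all), among them Psmb5, where it starts 47 bases upstream, and Psmb6. Psmb9 and Tap1 are transcribed away from each other on opposite strands, and their windows overlap over chr17:34187306-34187580. These matches describe the letters in the windows and no binding.

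Wells with at least 1000 genes at 1 FPKM or more (fragments per kilobase of transcript, scaled to library size) were kept, which left 78 CD4 KO, 74 CD4 WT, 77 CD8 KO and 72 CD8 WT cells. The CD8 WT plate had most detected genes, with a median of 2530.5 per cell, against 2091 in CD4 KO, 2047 in CD4 WT and 2243 in CD8 KO cells. Cd4 was detected in 91.03% and 89.2% of CD4 KO and CD4 WT cells and in 1.30% and 0% of CD8 KO and CD8 WT cells. Cd8a was detected in 0% and 2.70% of CD4 KO and CD4 WT cells and in 81.8% and 84.7% of CD8 KO and CD8 WT cells. Foxp3, a marker of regulatory T cells, was detected in 47.4% of CD4 KO and 36.5% of CD4 WT cells. It was detected in 2.60% of CD8 KO and 0% of CD8 WT cells. The CD4 cells were compared without a split by Foxp3, and its part in the differences below was not tested. Il27ra was detected in 47.4% of CD4 KO, 36.5% of CD4 WT, 57.1% of CD8 KO and 51.4% of CD8 WT cells. Since the deleted part is not given, this does not check the genotype labels. The melanoma marker Dct was detected in 0% of CD4 KO against 13.5% of CD4 WT cells, and in 1.30% of CD8 KO against 15.3% of CD8 WT cells. None of the 56 genes had a value above 0 in any of the 4 no-cell wells, and no 2 wells held identical values.

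Class I chains were by far the most abundant transcripts of the set in every group, followed by Psmb8. B2m ranged from 5.91 to 24005 FPKM with a median of 8587 FPKM in CD4 KO cells and from 1264 to 20218 with a median of 6829 FPKM in CD4 WT cells. It ranged from 0 to 14716 with a median of 5715 FPKM in CD8 KO cells and from 0 to 19013 with a median of 8870 FPKM in CD8 WT cells. The ranges of the plates overlapped almost completely. Averaged over the 4 population libraries, B2m stood at 16560 ± 3530 FPKM (SD, n = 4), H2-K1 at 13281 ± 4238 FPKM and H2-D1 at 10943 ± 3277 FPKM, which do not separate beyond their spread. Psmb8 followed at 2682 ± 398 FPKM and lay above Psme2 (1322 ± 228.4 FPKM) and Psme1 (1243 ± 197.4 FPKM). Reads shared between H2-K1, H2-D1 and the related H2-Q and H2-L genes were divided by estimate, so the level of each single heavy chain is uncertain. At the other end, the alternative alpha subunit Psma8, known from the testis, was listed at 0 in every well. Psmb11, the catalytic subunit of the thymus epithelium, was detected in 52.6% of CD4 KO, 54.1% of CD4 WT, 55.8% of CD8 KO and 58.3% of CD8 WT cells. Its values were, however, close to the detection level, with plate means between 1.32 and 1.45 FPKM and population values of 1.05 FPKM in CD4 KO, 3.06 in CD4 WT, 0 in CD8 KO and 0.34 in CD8 WT libraries. Between these ends, the nuclear PA28 gamma (Psme3) averaged 20.4 ± 11.98 FPKM and the activator PA200 (Psme4) 9.59 ± 6.76 FPKM over the population libraries (SD, n = 4).

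Immunoproteasome transcripts exceeded those of their constitutive counterparts on all 4 plates, and Psmb8 made the largest part of that excess. Psmb8 had a median of 994 FPKM in CD4 KO cells (range 0 to 4855), 850 FPKM in CD4 WT cells (0 to 3759), 924 FPKM in CD8 KO cells (0 to 3089) and 1064 FPKM in CD8 WT cells (0 to 3757). Psmb5, the subunit it replaces, had a median of 0 FPKM on every plate and a maximum of 2691 FPKM in CD4 KO, 2077 FPKM in CD4 WT, 1725 FPKM in CD8 KO and 1861 FPKM in CD8 WT cells. Most cells of each plate thus had no detected Psmb5, while most had Psmb8. The ratio of mean FPKM of Psmb8 to Psmb5 was 5.42 in CD4 KO, 3.74 in CD4 WT, 4.43 in CD8 KO and 3.73 in CD8 WT cells. The ratio of Psmb9 to Psmb6 was 1.69, 1.38, 1.10 and 1.11 in the same order of plates. That of Psmb10 to Psmb7 was 2.24, 2.05, 2.21 and 2.03. The excess of Psmb9 over Psmb6 was therefore the smallest of the pairs on each plate. Summed over the 3 subunits of each kind, the ratio was 3.52 in CD4 KO, 2.67 in CD4 WT, 2.72 in CD8 KO and 2.30 in CD8 WT cells. Its mean on the log2 scale was 1.47 ± 0.25 (SD, n = 4), above 0 on 4 of 4 plates, with an exact two-sided sign-flip permutation p of 0.13, the smallest that 4 plates can give.

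**Figure D1:**
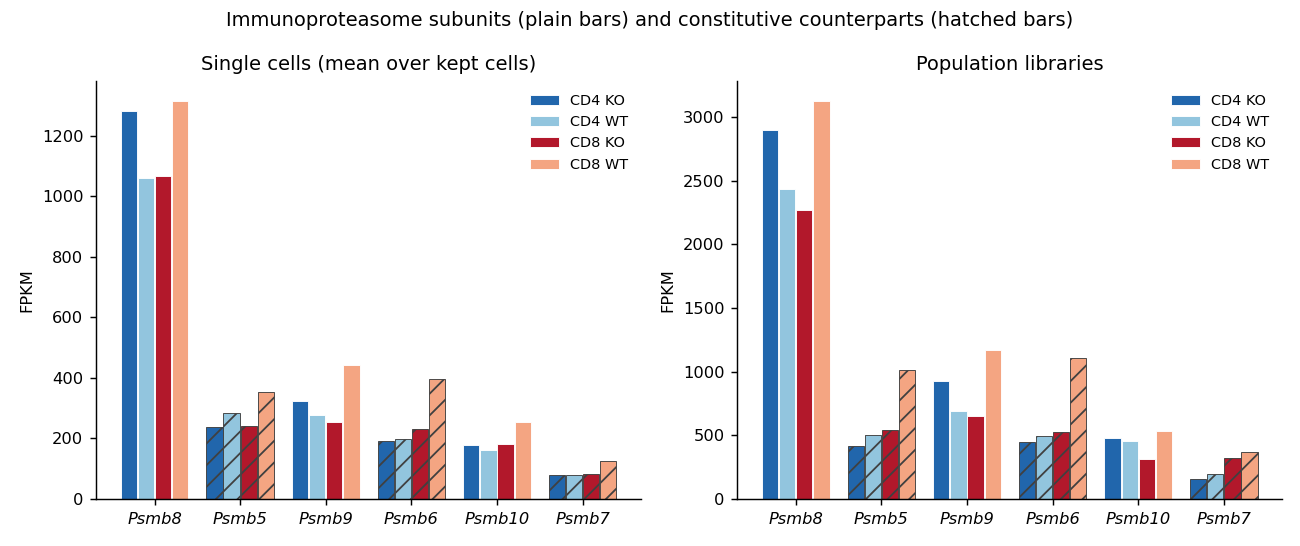
Mean FPKM over kept cells (left) and FPKM of the population library (right) for each immunoproteasome subunit (plain bars) beside its constitutive counterpart (hatched bars), with 1 bar per plate and no error bars. Psmb8 lies far above Psmb5 on every plate, while Psmb9 and Psmb6 are close, with cell ratios of 1.69, 1.38, 1.10 and 1.11 in CD4 KO, CD4 WT, CD8 KO and CD8 WT.

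The population libraries, each made from many cells in 1 well, gave a similar mean ratio and a wider spread. The summed ratio was 4.23 in CD4 KO, 3.02 in CD4 WT, 2.32 in CD8 KO and 1.94 in CD8 WT libraries, with a mean of 1.46 ± 0.49 on the log2 scale (SD, n = 4; exact sign-flip permutation p = 0.13, two-sided). Psmb10 was at 479 FPKM against 156.5 FPKM of Psmb7 in CD4 KO and at 458 against 193.15 FPKM in CD4 WT. In CD8 KO it was at 313.35 FPKM against 324.1 FPKM of Psmb7, a ratio of 0.967, and in CD8 WT at 536 against 370.7 FPKM. That pair was the only one below 1 in any library (log2 ratio above 0 in 3 of 4, exact permutation p = 0.25). In a bulk library, fewer cells of a type and less RNA per cell cannot be told apart. The log2 ratio was higher in CD4 than in CD8 by 0.75 in the population libraries (exact permutation p = 0.33, two-sided, the smallest that 2 against 2 can give) and by 0.29 in the cells (p = 0.667, exact permutation). KO minus WT it was 0.40 in CD4 cells and 0.24 in CD8 cells, and 0.48 and 0.26 in the CD4 and CD8 population libraries, with 1 plate per group and no test.

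Cell by cell, Psmb8 without Psmb5 was frequent and the reverse was rare. Psmb8 was detected without Psmb5 in 53.8% of CD4 KO cells (95% Clopper-Pearson interval 42.2 to 65.2), 47.3% of CD4 WT cells (35.6 to 59.3), 51.9% of CD8 KO cells (40.3 to 63.5) and 33.3% of CD8 WT cells (22.7 to 45.4). Psmb5 without Psmb8 was found in 6.41% of CD4 KO, 1.35% of CD4 WT, 1.30% of CD8 KO and 1.39% of CD8 WT cells. A gene with lower mean FPKM is missed more often in single-cell libraries, so these shares carry the difference in level as well. These intervals reflect counting error and leave out the spread between animals. The summed FPKM of the immunoproteasome subunits exceeded that of the constitutive ones in 74.4% of CD4 KO, 70.3% of CD4 WT, 80.5% of CD8 KO and 80.6% of CD8 WT cells. All 3 immunoproteasome subunits were detected together in 20.5% of CD4 KO, 20.3% of CD4 WT, 28.6% of CD8 KO and 40.3% of CD8 WT cells. All 3 constitutive ones were detected together in 7.69%, 8.11%, 11.7% and 25.0% of cells in the same order. The CD8 WT plate, the one with most detected genes per cell, was the highest in both.

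Most proteasome genes were lower in CD8 KO than in CD8 WT cells. B2m, H2-K1, H2-D1 and Tapbp were not when log2 values were averaged over all kept cells. With 1 plate per genotype there is no test, and a gene was counted when the plate means of log2(FPKM + 1) differed by more than 1. Of the 53 genes of the set detected in at least 10% of the cells of either plate, 20 were lower by that measure, against 9.19% of all 8117 genes, and 0 were higher, against 2.07%. The median difference was -0.78, against -0.22 for all genes, and 46 of 53 lay below 0, as did 67.98% of all genes. The 14 subunits of the standard core (Psma1 to Psma7 and Psmb1 to Psmb7) were below 0 in 14 of 14, with 9 past 1 log2 and a median of -1.18. The 17 subunits of the 19S particle were below 0 in 17 of 17, with 7 past 1 log2 and a median of -0.96. The 4 structural beta subunits Psmb1 to Psmb4 were all past 1 log2.

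Psmb4, a structural subunit of the beta ring, had a median of 0 FPKM in CD8 KO cells (highest 1234) and of 284.4 FPKM in CD8 WT cells (highest 1174). It was detected in 36.4% of CD8 KO cells (25.7 to 48.1) and 63.9% of CD8 WT cells (51.7 to 74.9), and the means differed by -2.14 log2. Psmb2, another structural subunit of the ring, was detected in 40.3% of CD8 KO and 59.7% of CD8 WT cells and differed by -2.08. For both genes the ranges of the cells overlapped, and the plates differed in how many cells had the transcript at all. The 19S ATPase Psmc4 was detected in 38.96% of CD8 KO and 59.7% of CD8 WT cells and differed by -1.70. The catalytic subunits Psmb5, Psmb6 and Psmb7 differed by -1.05, -1.16 and -1.25. Of the immunoproteasome, Psmb10 differed by -1.19 and Psmb9 by -0.94, whereas Psmb8 differed by 0.45, with detection in 89.6% of CD8 KO (80.6 to 95.4) and 80.6% of CD8 WT cells (69.5 to 88.9). The mean FPKM of Psmb8 ran the other way, 1068 in CD8 KO against 1315 in CD8 WT cells. PA28 alpha (Psme1) differed by -1.02 and PA28 beta (Psme2) by -0.40. Among the remaining genes the highest were Psme3 at 0.48, the 20S assembly chaperone Psmg4 at 0.05 and Psmb11 at -0.02.

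These differences were smaller in cells matched on depth. A CD8 KO cell had a median of 6 of the 14 core subunits detected, against 9 in a CD8 WT cell, and core subunits per cell followed the number of detected genes. When 42 cells of each plate were matched on detected genes, the medians were 6.5 in CD8 KO and 7.5 in CD8 WT cells. In the matched cells 8 of 50 genes were lower by more than 1 log2 and 4 were higher (4.59% and 6.87% of all genes), the core median was -0.47, and Psmb5 changed sign to 0.39. When cells under 2000 detected genes were left out instead, 23 of 55 genes were lower and 0 higher (13.6% and 1.94% of all genes). The set median was then -0.93 and the core median -1.12. That cutoff sets a floor and does not match the plates on depth, so it is no control for depth. With log2 ratios of arithmetic mean FPKM, 1 gene was lower and 1 higher (12.04% and 8.22% of all genes), and the core median was -0.54. Without wells that held melanoma, myeloid or other foreign markers (Tyr and Pecam1 not used), 27 of 54 genes were lower, against 16.7% of all genes, and the core median was -1.77. At least 1 melanoma marker other than Tyr was detected in 10.4% of CD8 KO and 22.2% of CD8 WT cells, and the proliferation marker Mki67 in 9.09% and 29.2%. Their part in the difference was not tested.

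**Figure D2:**
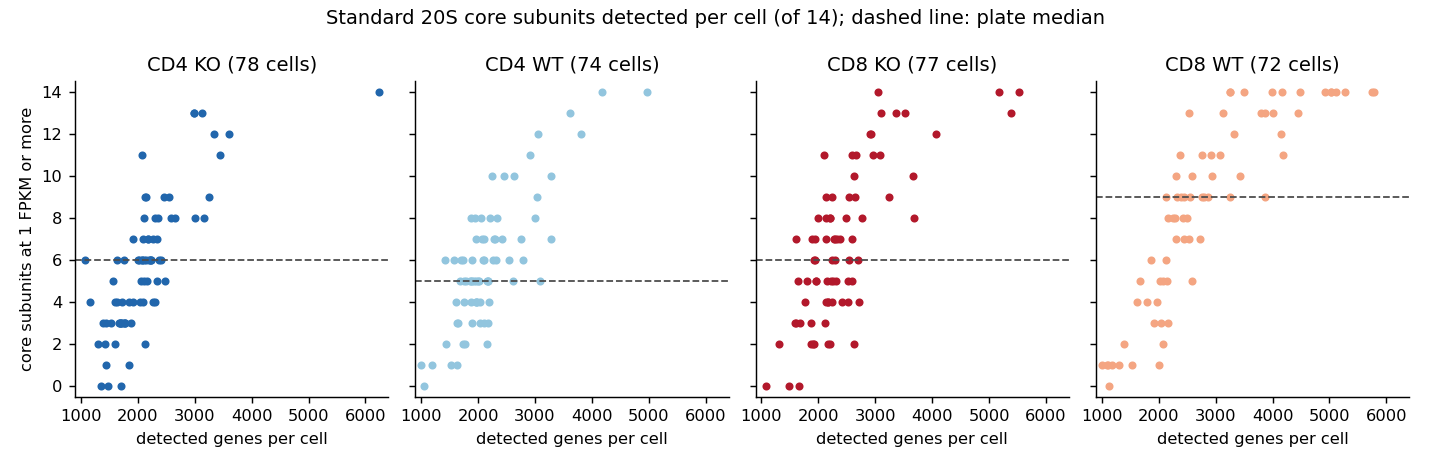
Standard core subunits at 1 FPKM or more in each kept cell, of 14 (vertical axis), against the number of detected genes in that cell (horizontal axis), with 1 panel per plate and a dashed line at the plate median. The medians are 6, 5, 6 and 9 for CD4 KO, CD4 WT, CD8 KO and CD8 WT, and cells with more detected genes have more core subunits on every plate.

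In the CD8 population libraries the core was lower under the KO label as well, by a smaller amount. The 14 core subunits summed to 9094 FPKM in CD8 KO and 13987 FPKM in CD8 WT. In all, 14 of 14 lay below 0, as did 47.5% of all genes, and their median was -0.54. Of 54 genes at 1 FPKM or more in either library, 5 were lower by more than 1 log2 (14.9% of all 11761 genes were) and 0 were higher (18.6%). The 5 were the 19S subunit Psmd3 (-1.25), the assembly chaperone Psmg3 (-1.08), Psmb6 (-1.07), Psmc3ip (-1.04) and Psmb4 (-1.03). The median of the set was -0.37, against 0.05 for all genes. Psmb8, Psmb9 and Psmb10 differed by -0.46, -0.85 and -0.77, and the 19S subunits had a median of -0.21 with 5 of 17 above 0. At the high end were the 19S chaperone Psmd5 (0.96), Psmg2 (0.36) and the 19S subunit Psmd7 (0.35), the last of which differed by -1.56 in the cells.

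The class I chains stood apart from the proteasome in the CD8 comparison of all kept cells. The direction for B2m, H2-K1 and H2-D1, however, depended on how cells were averaged. The median of the 7 class I presentation genes was 0.51 in all kept cells and 0.27 in cells matched on detected genes. It was -0.54 in cells with at least 2000 detected genes, where 3 of 7 were lower by more than 1 log2 (13.6% of all genes). The median was -0.04 without wells that held foreign markers and -0.33 with arithmetic means. H2-K1 had a median of 5791 FPKM in CD8 KO cells (1069 to 15962) and 6464 FPKM in CD8 WT cells (0 to 15520), and the means of log2 values differed by 0.96. B2m differed by 0.51, H2-D1 by 0.52 and Tapbp by 0.80. B2m was undetected in 5 of 72 CD8 WT cells and 1 of 77 CD8 KO cells, and H2-K1 in 4 CD8 WT cells and 0 CD8 KO cells. Of the 5 CD8 WT wells without B2m, 4 had a Cd3 gene and 2 a melanoma marker other than Tyr, and their median was 1127 detected genes. In cells with B2m its mean log2 value was 12.43 in CD8 KO and 12.64 in CD8 WT, so the sign turned. By arithmetic mean B2m was also lower in CD8 KO cells, at 6322 against 8162 FPKM, as were H2-D1, at 4127 against 5195 FPKM, and H2-K1, at 5714 against 5867 FPKM. In the population libraries B2m differed by 0.15, H2-K1 by 0.01 and H2-D1 by -0.01.

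Tap1 and Nlrc5 were on the low side in CD8 KO. Tap1 had a median of 208.1 FPKM in CD8 KO cells (0 to 1220) and 380.8 FPKM in CD8 WT cells (0 to 1886), with detection in 68.8% (57.3 to 78.9) and 80.6% (69.5 to 88.9), and differed by -1.33. Nlrc5 had a median of 4.42 FPKM in CD8 KO cells (0 to 255.1) and 33.6 FPKM in CD8 WT cells (0 to 413), with detection in 55.8% (44.1 to 67.2) and 79.2% (67.98 to 87.8), and differed by -1.45. The cells of the plates overlapped for both genes. With log2 ratios of arithmetic mean FPKM, 0 of the 7 class I presentation genes were lower by more than 1 log2. Tap1 and Nlrc5 were thus not past that limit. Tap2 differed by -0.32. In the population libraries Tap1 differed by -0.35, Tap2 by -0.37, Tapbp by -0.05 and Nlrc5 by -0.19. Of the 6 other peptide loading partners, Pdia3 (-1.76), a thiol oxidoreductase of the loading complex, and the tapasin-related Tapbpl (-1.04) were lower by more than 1 log2 in CD8 KO cells (9.19% of all genes were). In the population libraries Pdia3 differed by -0.31 and Tapbpl by -0.12. The chaperone Calr differed by -0.17 in the cells and by 1.32 in the population libraries. Of 11 genes of the interferon gamma axis, the receptor chain Ifngr1 was higher in the cells (1.32) and Irf8 lower (-1.24), against 2.07% and 9.19% of all genes. In the population libraries Ifngr1 differed by 0.85 and Irf8 by 0.06.

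In CD4 cells, with and without Foxp3 together, the proteasome as a whole lay close to 0 between the genotypes. The TAP genes Tap1 and Tap2 were higher in CD4 KO by more than 1 log2 when log2 values were averaged. Of 52 genes tested, 3 were higher by more than 1 log2 in CD4 KO (2.53% of all 7063 genes were) and 2 were lower (2.51%), and the median was -0.02, against -0.04 for all genes. The core subunits had a median of -0.14, with 6 above and 8 below 0. Tap1 had a median of 450 FPKM in CD4 KO cells (0 to 2308) and 296.3 FPKM in CD4 WT cells (0 to 1994), with detection in 78.2% (67.4 to 86.8) and 67.6% (55.7 to 77.995), and differed by 1.12. Tap2 had a median of 418 FPKM in CD4 KO cells (0 to 2818) and 326.7 FPKM in CD4 WT cells (0 to 1296) and differed by 1.05. With log2 ratios of arithmetic mean FPKM, 0 of the 7 class I presentation genes were higher by more than 1 log2, and their median was 0.28. In the CD4 population libraries both differences were smaller, 0.12 for Tap1 (1276 against 1178 FPKM) and 0.40 for Tap2 (1057 against 799 FPKM).

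The third gene past the limit was Psmc5, a 19S ATPase, detected in 39.7% of CD4 KO cells (28.8 to 51.5) and 22.97% of CD4 WT cells (13.99 to 34.2), with a difference of 1.71. It was followed by the deubiquitinating subunit Psmd14 at 0.96 and the alpha subunit Psma7 at 0.74. The lowest were the 19S subunits Psmd2 (-1.21), Psmd11 (-1.08) and Psmd4 (-0.83), and in cells matched on detected genes Psmd11 turned to 0.00612. Psmb8 differed by 0.55, Psmb9 by -0.70 and Psmb10 by -0.24, so the immunoproteasome subunits did not share a direction. Psmb5, Psmb6 and Psmb7 differed by -0.03, -0.31 and 0.16. Psme2 differed by 0.71 and Psme1 by -0.09. B2m, H2-K1 and H2-D1 differed by 0.05, 0.28 and 0.30, Tapbp by 0.64 and Nlrc5 by -0.42.

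The CD4 population libraries showed larger scatter, among low genes and also among some at higher levels such as Psmd6 and Psmc2. Of 55 genes, 4 were higher by more than 1 log2 in CD4 KO (22.6% of all 11344 genes were) and 3 were lower (20.8%), and the median was 0.25, against 0.01. The higher ones were the 19S subunit Psmd6 (1.81; 287.75 against 81.1 FPKM), the 19S assembly chaperone Psmd9 (1.47), Psme4 (1.09) and the ATPase Psmc2 (1.04). The lower ones were Psmc3ip (-3.56), Psme3 (-2.59; 4.69 against 33.4 FPKM) and Psmg3 (-1.55). Psmb11 differed by -0.99 at values near the detection level. None of the 7 class I genes was past 1 log2, and Nlrc5 was the lowest of them (-0.95; 57.8 against 112.4 FPKM). Among the listed genes outside the set, the interferon-responsive factor Irf1 was higher in CD4 KO in both kinds of library, by 1.46 in the cells and 1.49 in the population (2682 against 951 FPKM). Calr was likewise higher, by 1.83 and 1.66, and the chaperone Hspa5 differed by 1.91 in the cells and 0.33 in the population.

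**Figure D3:**
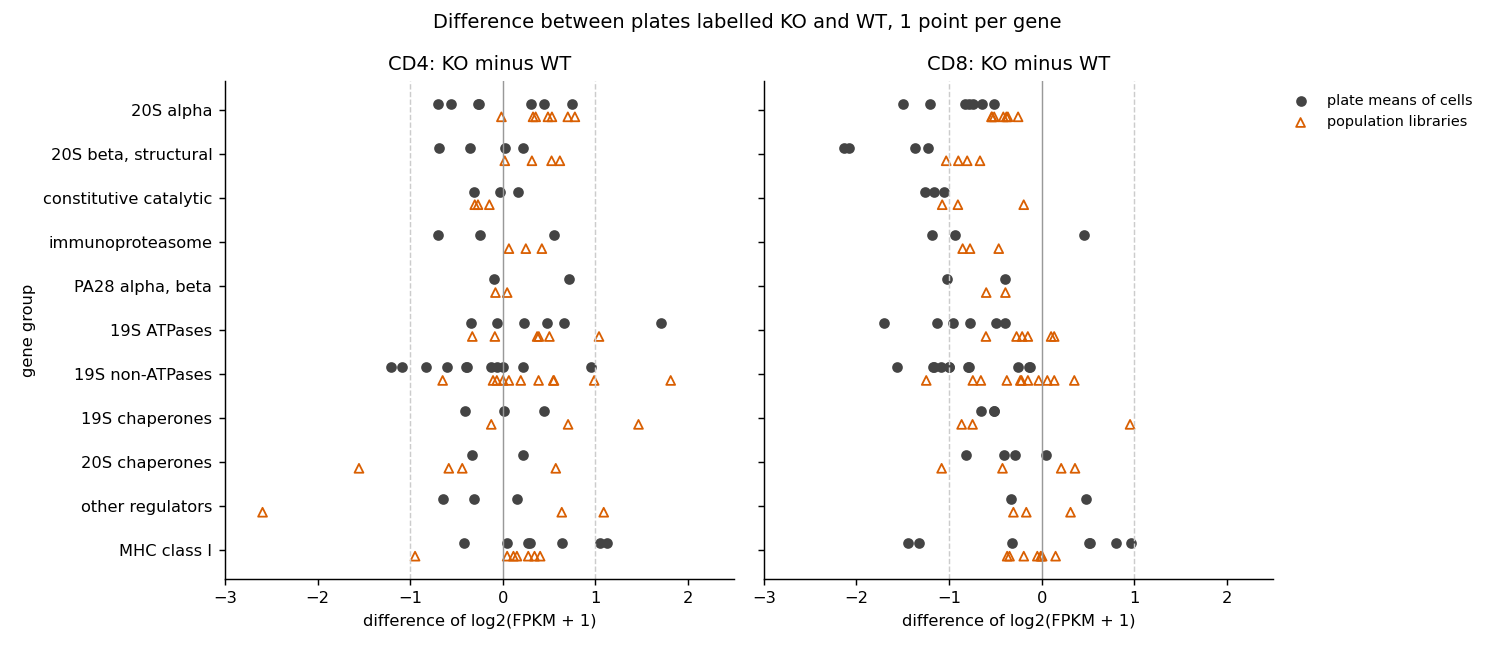
KO minus WT difference of log2(FPKM + 1) for each gene (1 point per gene), by subunit group, in CD4 (left) and CD8 (right), for plate means of cells (filled circles) and population libraries (open triangles); dashed lines mark 1 log2, and Psmb11, Psma8 and Psmc3ip are not drawn. In CD8 the core groups lie below 0 in both kinds of library, with medians of -1.18 and -0.54, while in CD4 cells they lie on both sides of 0.

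Between the cell types, class I heavy chains were higher and several proteasome genes lower in CD4 than in CD8. The limma fit on the 4 plate means, with source as a block and p-values adjusted by Benjamini-Hochberg over 8427 genes, has 1 residual degree of freedom, so its spread is pooled over genes. Of 54 genes, 2 rose in CD4 (1.12% of all genes did) and 7 fell (6.32%). The median was -0.72, against -0.27 for all genes, of which 77.1% lay below 0. H2-K1 had mean log2 values of 12.90 in CD4 KO and 12.62 in CD4 WT cells, against 12.31 in CD8 KO and 11.35 in CD8 WT cells, so both CD4 plates were above both CD8 plates. Its difference was 0.93 ± 0.29 (SE; limma adjusted p = 0.025, and 0.121 without the block). H2-D1 was ordered the same way and differed by 0.91 ± 0.30 (limma adjusted p = 0.039, and 0.103 without the block). B2m differed by 0.76 ± 0.28 and missed the threshold (limma adjusted p = 0.074).

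The 7 that fell were the core subunits Psmb3 (-1.88 ± 0.57), Psma7 (-1.81 ± 0.58) and Psmb6 (-1.79 ± 0.54), the 19S subunits Psmc4 (-1.53 ± 0.51) and Psmd1 (-1.29 ± 0.42), and the assembly chaperones Psmg2 (-1.13 ± 0.38) and Psmg3 (-0.79 ± 0.25), with SE in each case and limma adjusted p between 0.022 and 0.044. All 14 core and all 17 19S subunits lay below 0, as did 77.1% of all genes. Psmb8, Psmb9 and Psmb10 differed by -0.35, -0.53 and -1.20, and Psme1 by -1.41, without passing. Psma7 differed by -0.69 between the KO plates and by -2.92 between the WT plates, and Psmb3 by -1.18 and -2.57. For both genes the difference was larger between the WT plates, which include CD8 WT, the plate with most detected genes per cell. All 9 calls rest on the block, which assumes 1 source per genotype: without it 0 rose and 0 fell (3 and 16 at an unadjusted limma p under 0.05). A fit that leaves out 1 plate cannot keep the block, so its counts reflect both changes: they were 0 and 0 without the CD8 WT plate, 3 and 13 without the CD8 KO plate, 0 and 0 without the CD4 KO plate and 1 and 0 without the CD4 WT plate. In cells matched on detected genes none fell (3 did at an unadjusted limma p under 0.05), whereas B2m, H2-K1 and H2-D1 rose (limma adjusted p between 0.000156 and 0.000824). Of 12 proteasome partners outside the set, 2 fell in all kept cells with the block (6.32% of all genes did). They were Pomp, the maturation factor of the 20S core (-1.96, limma adjusted p = 0.0098), and Uchl5 (-1.34, limma adjusted p = 0.021). In the population libraries Pomp differed by -0.57 and Uchl5 by -0.66 without passing (limma adjusted p = 0.49 and 0.59).

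**Figure D4:**
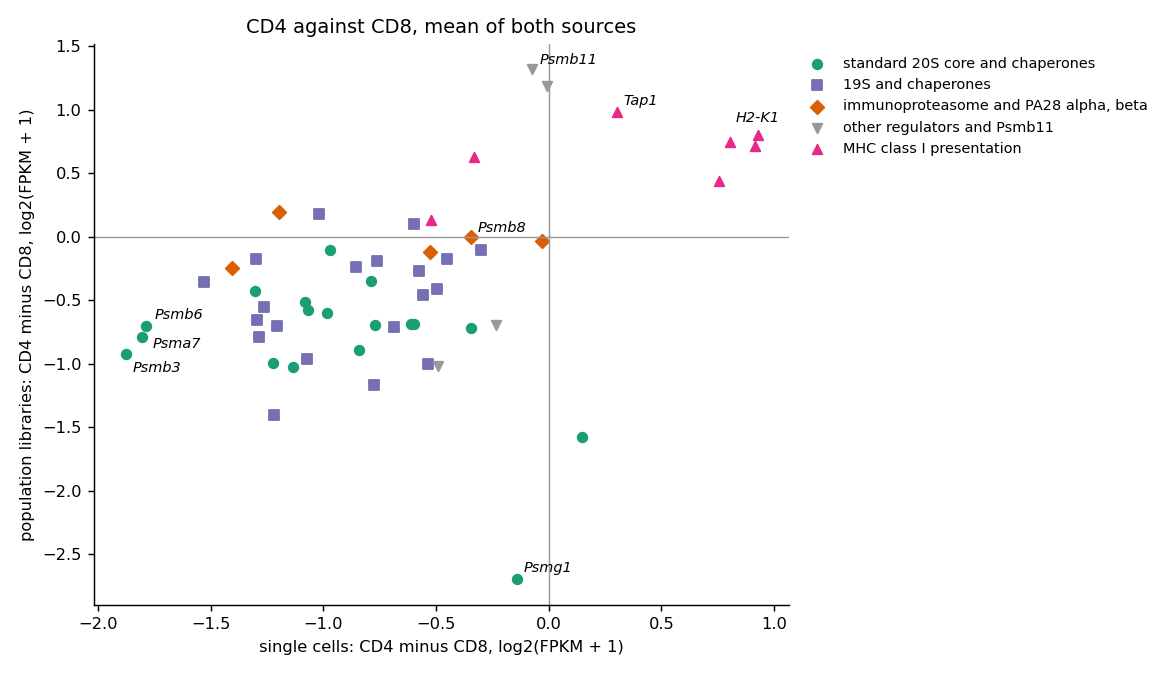
CD4 minus CD8 difference of log2(FPKM + 1), averaged over both sources, in single cells (horizontal axis) and in population libraries (vertical axis), with 1 point per gene coloured by group. Core and 19S subunits lie mostly below 0 on both axes. The 7 class I genes all lie above 0 on the population axis, with a median of 0.72, against -0.12 for all genes.

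In the population libraries all 7 class I genes lay above 0, with a median of 0.72. The median of all genes was -0.12, and 54.5% of all genes lay below 0. Tap1 stood at 1276 FPKM in CD4 KO and 1178 FPKM in CD4 WT, against 550 FPKM in CD8 KO and 699 FPKM in CD8 WT. It was higher in CD4 by 0.98 ± 0.32 (SE; limma adjusted p = 0.0498) and was the only gene of 55 that rose (1.6% of all 12603 genes did). Psmg1, a 20S assembly chaperone, stood at 16.6 and 10.9 FPKM in CD4 KO and CD4 WT against 80.1 and 107.7 FPKM in CD8 KO and CD8 WT, and fell by 2.70 ± 0.70 (limma adjusted p = 0.005). It was the only one that fell (3.33% of all genes did). In the cells Psmg1 differed by -0.14, with detection in 6.49% to 12.5% of cells. H2-K1, H2-D1 and B2m were higher by 0.80, 0.72 and 0.44 without passing. The core had a median of -0.69, with 14 of 14 below 0, and the immunoproteasome one of -0.00, with Psmb8 at -0.00, Psmb9 at -0.12 and Psmb10 at 0.19. Leaving aside the catalytic, PA28 and class I genes and Psmc3ip (-1.78), the next lowest were Psmg4 (-1.57) and Psmd3 (-1.40) and the highest Psmb11 (1.32), Psme4 (1.19) and Psmd4 (0.18). Among genes of the interferon gamma axis, Irf1 (1.63) and Irf9 (1.34) rose and Ifng (-1.94) fell, with limma adjusted p between 6e-05 and 0.029. Without the block none of the 55 genes passed (5 rose and 11 fell at an unadjusted limma p under 0.05), and 4 of 12603 did in all. Leaving out 1 library, which also removes the block, gave 0 and 0 each time (1 to 3 and 0 to 10 unadjusted, limma).

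**Figure D5:**
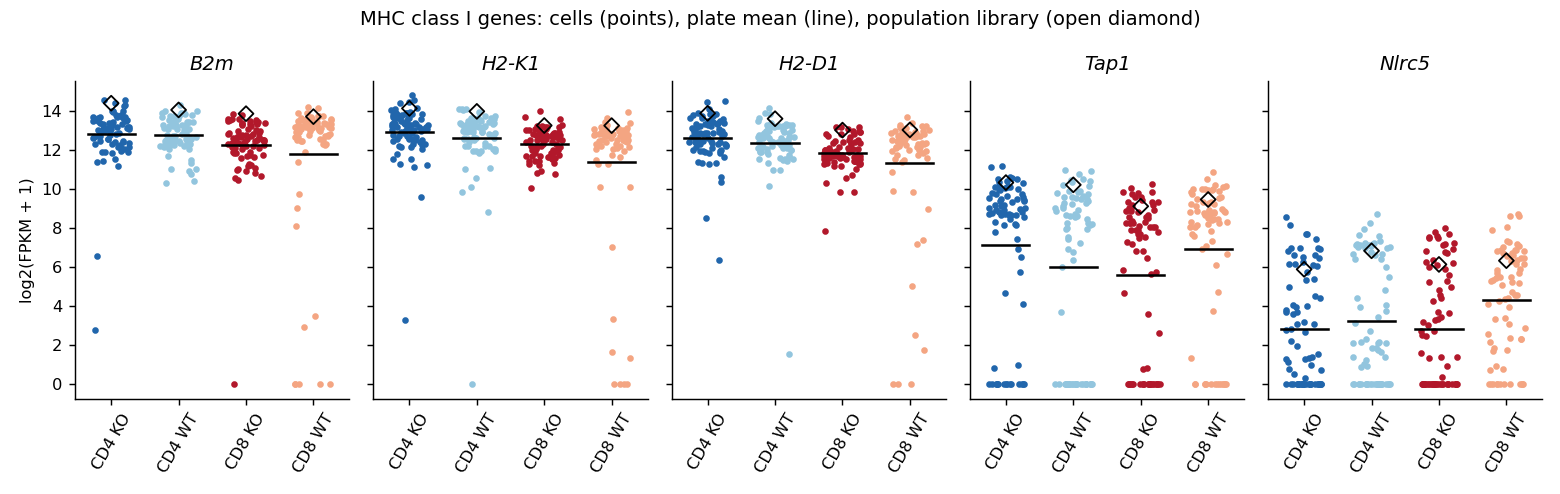
log2(FPKM + 1) of B2m, H2-K1, H2-D1, Tap1 and Nlrc5 in each kept cell (points) by plate, with the plate mean (line) and the population library (open diamond). B2m and the heavy chains are high in nearly all cells, with a few CD8 WT cells at 0, whereas Tap1 and Nlrc5 split into cells at 0 and cells with a value.

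Across the cells of a plate, the summed levels of the groups were related to each other and to the number of detected genes. The core sum and the 19S sum had a Spearman rho of 0.47 in CD4 KO (78 cells), 0.33 in CD4 WT (74 cells), 0.63 in CD8 KO (77 cells) and 0.82 in CD8 WT (72 cells). The core sum and the number of detected genes had a rho of 0.66, 0.51, 0.57 and 0.87 in the same order. The plate with the closest relation between core and 19S was thus also the one where the core followed detected genes most closely. The immunoproteasome sum was related to the sum of B2m, H2-K1 and H2-D1 with a rho of 0.53 in CD4 KO, 0.52 in CD4 WT, 0.45 in CD8 KO and 0.63 in CD8 WT. With its constitutive counterparts its rho was 0.28, 0.07, 0.23 and 0.64. Cells of 1 plate share library preparation and depth, so these values are given as a description.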

How the data were processed

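The deposited values are FPKM with TMM normalization, 1 column per well, as the authors gave them. Bowtie, RSEM and build mm10 are named in the submitters' processing notes, with versions not given in the sources used here. Reads that fit more than 1 gene are shared out between them by RSEM's model. The file holds no read counts, so depth is described by detected genes (1 FPKM or more). The genes and lists were chosen with earlier results of these data known.

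Of 376 single-cell wells, 301 with at least 1000 detected genes were kept. Means over cells of log2(FPKM + 1) were taken per plate, which understates changes of low genes and carries the share of cells with detection. Genes detected in at least 10% of cells of 1 plate compared were used, or at 1 FPKM or more in 1 population library. CD4 minus CD8 was fitted with limma 3.58.1 (lmFit and eBayes with trend, R 4.3.3), source as replicate block, Benjamini-Hochberg adjustment and a threshold of 0.05. These p-values rest on how far the CD4 minus CD8 difference varied between the KO and WT sources, moderated by a trend over all genes. They do not measure the spread between mice. The fit was also run on simulated data with the same spread for all genes and no source effect. That setting differs from the real plates, so it does not show how the fit performs on them. The source name in the titles pairs the plates. Intervals are 95% Clopper-Pearson (scipy 1.17.1). Named with values are the catalytic, PA28 and class I genes and, per comparison, the 3 highest and 3 lowest of the others; further genes were named after their values were seen. One gene of the interferon gamma list is not reported here.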

Additional observations from a re-analysis of the deposited data

Results flagged for a closer look

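Psmc5 and Tap1 were picked out because their KO minus WT differences had opposite signs in the 2 cell types, in the cells and in the population libraries. Both were past 1 log2 in the CD4 cells and in the CD8 cells. Opposite signs alone were not particular to them. Psma7, for example, differed by 0.74 in CD4 cells and 0.70 in the CD4 population libraries. In CD8 it differed by -1.49 in the cells and -0.25 in the population libraries. Psmc5, a 19S ATPase, differed by 1.71 log2 in CD4 cells and -1.13 log2 in CD8 cells, and by 0.39 and -0.21 in the CD4 and CD8 population libraries. Tap1 differed by 1.12 log2 in CD4 cells and -1.33 log2 in CD8 cells, and by 0.12 and -0.35 in the population libraries. The difference between the cell types was not tested, since each rests on 1 plate per genotype.

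H2-K1 and H2-D1 were picked out because they appear in wells left out of the comparisons. Of the 75 single-cell wells with fewer than 1000 detected genes, H2-K1 was at 1 FPKM or more in 28% (95% Clopper-Pearson interval 18.2 to 39.6) and H2-D1 in 26.7% (17.1 to 38.1), against 0 FPKM in the 4 no-cell wells. B2m was detected in 18.7% of these wells and Tap1 in 0%. Detection there was not particular to class I genes. Psmd9 was at 1 FPKM or more in 24% of these wells and Psmb11 in 20%, also against 0 FPKM in the no-cell wells.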

How the results depend on the processing

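Counts of genes past 1 log2 depended on how cells were averaged and matched. In CD8 cells, 20 genes were lower and 0 higher in KO (9.19% and 2.07% of all genes). These became 31 and 1 with a pseudocount of 0.1 FPKM (20.1% and 4.30% of all genes). They were 1 and 1 with arithmetic means (12.04% and 8.22%) and 8 and 4 in cells matched on detected genes (4.59% and 6.87%). After centring on the median of all genes they were 10 and 2, a setting for which the share of all genes is not given. Without doubtful wells 1 was higher (2.48% of all genes). In the matched cells Psmb5 reversed to 0.39 in CD8, and Psmd11 to 0.00612 in CD4. In CD4 cells, 3 were higher and 2 lower (2.53% and 2.51% of all genes). These became 5 and 4 with the pseudocount of 0.1 (6.07% and 8.41% of all genes). In cells with at least 2000 genes they were 8 and 4 (4.64% and 5.85%). The higher count became 9 in matched cells (7.75% of all genes) and 5 without doubtful wells (4.45%). The lower count became 1 in cells with a Cd3 gene (2.29%).

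For CD4 minus CD8 in cells (2 higher, 7 lower), the fit with no replicate block gave 0 and 0 (limma; 3 and 16 at an unadjusted p under 0.05). Arithmetic means, cells with at least 2000 genes and genes detected in 25% of cells also gave 0 and 0 (1 and 4, 2 and 8, and 3 and 16 unadjusted, limma). No filter gave 1 and 3, and the added setting without doubtful wells 1 and 0. The pseudocount of 0.1 left 0 higher, and matched cells and centring left 0 lower. Leaving out 1 plate, which also removes the block, gave 0 to 3 higher and 0 to 13 lower, the lone plate being assumed to vary like the others. In the population libraries (1 and 1), no replicate block gave 0 and 0 (limma; 5 and 11 unadjusted), leaving out 1 library, also with no block, gave 0 to 0 for both, and the pseudocount of 0.1 and no filter left 0 higher. The log2 ratio of immunoproteasome to constitutive subunits was 1.47 and became 1.19 as a mean over the 3 pairs.

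Over the other settings tried, counts stayed within 1.5 times. The genes counted could still change: with arithmetic means 0 of the 7 class I genes were past 1 log2 in CD4 KO cells, so Tap1 and Tap2 were not. The rule for doubtful wells chosen at first, which counted Tyr and Pecam1, left 2 CD8 KO cells and 0 on each other plate and was not run. The rule without these genes and the setting with a Cd3 gene were chosen after seeing the data. Depth per well is known only as detected genes, so absence of a low transcript in a cell does not show that it was not expressed.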
